A study of Gallus gallus with 3 samples.

Results

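The nuclear genes of the respiratory chain were described in breast muscle of broilers, the fast-growing chickens kept for meat. They were chosen by symbol: NDUF for complex I, UQCR and CYC1 for complex III, COX followed by a digit for complex IV and its assembly factors, ATP5 for complex V, plus CYCS, cytochrome c. The gene table held 92 such symbols. Of these, 3 belong to the mitochondrial genome and were set aside, and CYC1 was not among them. Of the 89 nuclear genes, 62 had at least 1 row in the deposited tables, out of 10663 named genes in all. Complex I had 24 subunit genes with a row, complex III 6, complex IV 8 and complex V 12, beside 11 assembly factors and CYCS. The other 27 genes had no matched row and were not analysed here. They include NDUFS7 of the catalytic core of complex I, COX7B of complex IV and the Z-linked gene of the alpha subunit of complex V.

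All samples came from 42-day-old male Arbor Acres birds exposed to 50 ± 3 ppm of atmospheric ammonia. They form 1 group of 3 libraries, numbered as in their titles, and without an unexposed group the effect of the gas cannot be measured. Whether each library is a bird of its own is not stated. Each SD and p-value thus covers only how far these libraries differ, and that spread may be technical. Values are per transcript and were read as FPKM (fragments per kilobase, corrected for library size), an inference from the values. Every ratio or ranking between different genes below rests on that reading. Totals were 569361, 586193 and 573648 in libraries 1 to 3, and read depth is unknown.

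The respiratory chain sits in the inner mitochondrial membrane. Complexes I, III and IV pass electrons from NADH to oxygen and pump protons, cytochrome c carries electrons between complexes III and IV, and complex V makes ATP as protons flow back. Each of these complexes joins many subunits made from nuclear genes to a few made from the mitochondrial genome, and assembly factors help build it without staying in the finished complex. Chicken breast is a fast, glycolytic muscle with few mitochondria compared with red muscle. Of the fast fibre markers, MYL1, a myosin light chain, averaged 15976 ± 2880 FPKM and TNNT3, fast troponin T, 15641 ± 3595 FPKM (SD, n = 3), but PVALB, parvalbumin, only 1.703 FPKM. Of the slow and oxidative markers, MB (myoglobin) had 1.82, 9.32 and 6.36 FPKM in libraries 1 to 3 and TNNI1 (slow troponin I) 1.49, 17.1 and 2.28 FPKM, both highest in library 2. TNNC1, the slow and cardiac troponin C, averaged 13403.5 FPKM, and whether its row is rightly assigned was not examined. The remaining matched markers of that list averaged 35.7 (TPM3), 32.5 (LDHB), 1.56 (MYL3) and 0.062 (MYL2) FPKM. Fibre type was not tested.

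The respiratory chain genes together held 2.16 ± 0.428% of the summed value of a library (SD, n = 3). Their share was 1.72%, 2.17% and 2.58% in libraries 1 to 3, lowest in library 1 and highest in library 3. Complex V held 0.766 ± 0.199%, complex I 0.651 ± 0.0703%, complex IV 0.416 ± 0.0436% and complex III 0.255 ± 0.0961%. Assembly factors held 0.037 ± 0.00316%. These shares count matched members only, and the complexes differ in how many were matched. In all, 61 of the 62 genes reached at least 1 FPKM in at least 2 libraries and are called kept below. The exception was ATP5F1AW, the W-linked copy of the alpha subunit gene, which was listed below 0.001 FPKM in every library. Male birds carry no W chromosome, but whether this accounts for the value was not tested.

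**Figure D1:**
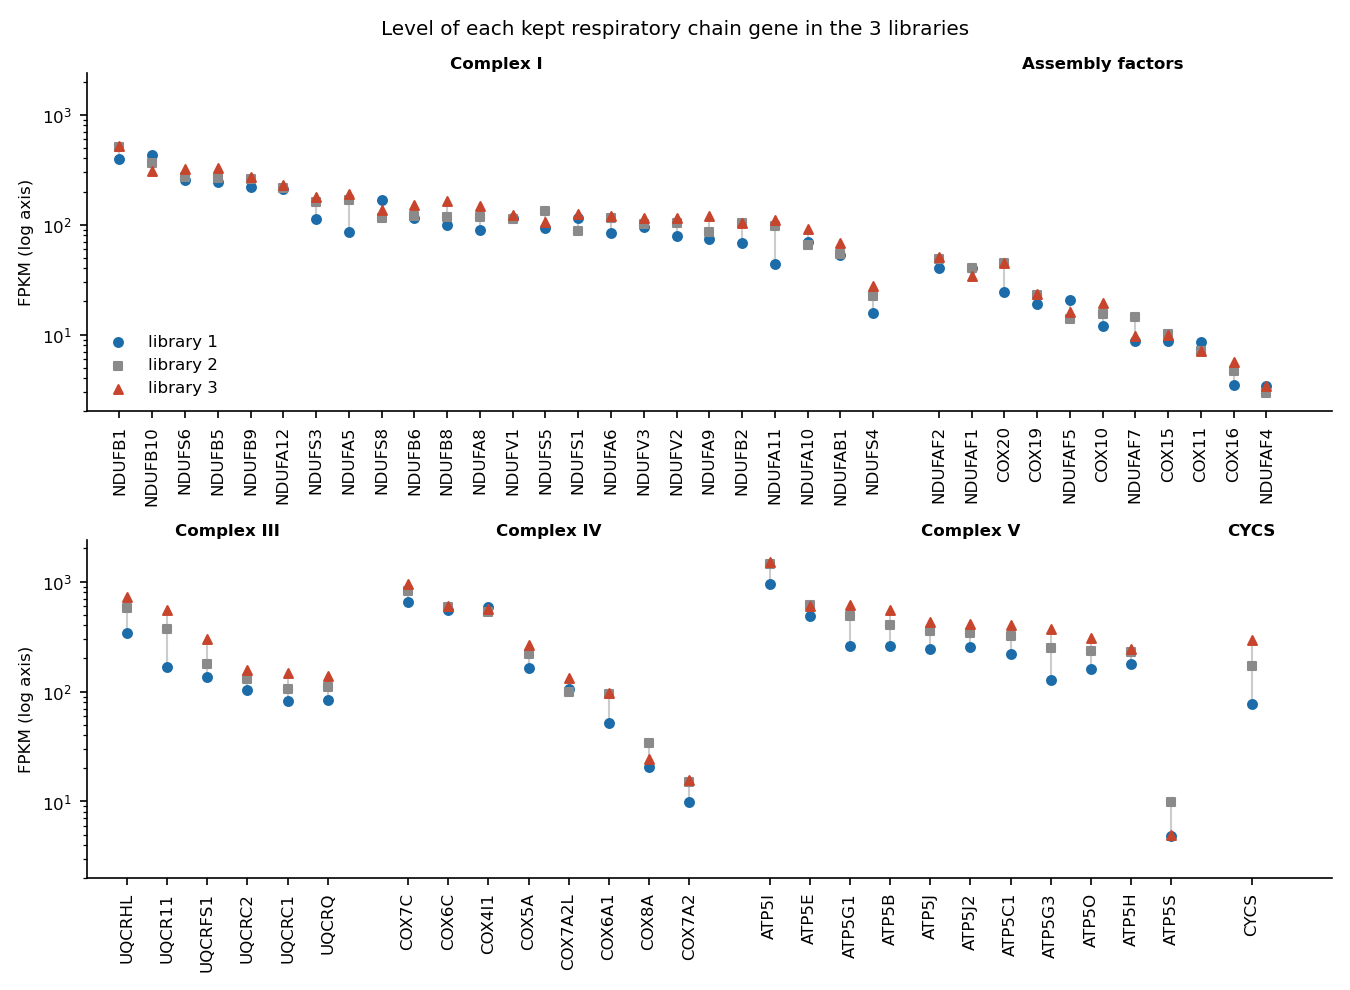
FPKM on a log axis for each of the 61 kept genes, with 1 symbol per library and a grey line over the range of the 3 libraries. Subunit genes of complexes III and V have library 1 as their lowest point without exception, as do 7 of the 11 assembly factors. Among all genes kept, 25.8% were lowest there. Assembly factors lie low.

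Complex V had the highest typical level. The median over its 12 genes was 230.3 FPKM in library 1, 332 FPKM in library 2 and 409 FPKM in library 3. These 12 include ATP5F1AW, which was not kept, and ATP5S, which counts by symbol only. Complex III had medians of 119, 155 and 229 FPKM, complex IV 133, 158 and 198 FPKM, and complex I 98.2, 115 and 131 FPKM. Every complex thus had its lowest median in library 1 and its highest in library 3. Within a library, the log2 ratio of complex I to complex V was -1.47 ± 0.21 on average (SD, n = 3), and that of complex I to complex IV -0.50 ± 0.087. Complex III stood at -0.96 ± 0.13 to complex V, and complex IV at -0.97 ± 0.16 to complex V. These 4 of the 6 pairs were called, meaning that the ratio had the same sign in the 3 libraries and its mean was larger than 2 SD. Complex I against complex III, at -0.50 ± 0.27, was not called, nor was complex III against complex IV, at 0.0021 ± 0.19. The exact two-sided sign-flip permutation p was 0.25 for the 4 called pairs and for complex I against III, the smallest that 3 libraries allow. It was 1 for complex III against IV, and after Benjamini-Hochberg adjustment over the 6 pairs the values were 0.3 and 1. No pair therefore passed 0.05. With curated rows only, complex I lay above complex IV by 0.11 and complex III above complex V by 0.029. With kept genes only, which leaves out ATP5F1AW, complexes I, III and IV lay at -1.51, -1.01 and -1.01 to complex V.

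The 11 assembly factors chosen by symbol lay far below the subunits. The subunits had a median of 116, 148 and 172 FPKM in libraries 1 to 3, against 12.1, 14.4 and 16.1 FPKM for the assembly factors. The log2 ratio of subunits to assembly factors was 3.26, 3.36 and 3.41, with a mean of 3.35 ± 0.078 (SD, n = 3), or 10.2-fold. Its size rests on the inference that the values are per transcript length. The ratio was called, and the exact sign-flip permutation p was 0.25, the smallest possible. The ratio to assembly factors was 4.48 ± 0.21 for complex V, 3.52 ± 0.27 for complex III, 3.52 ± 0.090 for complex IV and 3.02 ± 0.0098 for complex I. The highest of these 11 by mean, NDUFAF2 at 46.7 ± 5.41 FPKM, still exceeded 4 kept subunit genes: NDUFS4, COX8A, COX7A2 and ATP5S. Of these, ATP5S counts as a subunit by symbol only. The ranges therefore overlapped. Assembly factors with other symbols, described below, were not in this ratio, and some had higher means, up to 104 FPKM for SDHAF2.

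**Figure D2:**
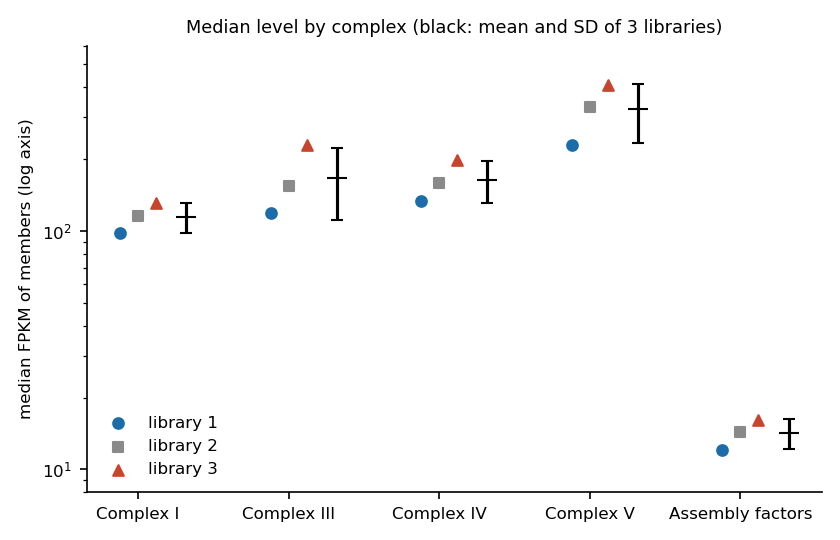
Median FPKM of the members of each complex and of the assembly factors on a log axis, with 1 symbol per library and the mean ± SD of the 3 libraries in black. Complex V is highest, complexes III and IV overlap, and assembly factors lie about 10.2-fold below the median of all subunits.

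Complex I was led by accessory subunits rather than by its catalytic core genes. NDUFB1, an accessory subunit of the membrane arm, had 399, 507 and 520.03 FPKM in libraries 1 to 3, lowest in library 1. NDUFS6, a zinc-binding accessory subunit, had 257, 269 and 321 FPKM, and NDUFB5 had 244, 265 and 329 FPKM. Both were again highest in library 3. NDUFB10, a membrane arm subunit, ran the other way with 432, 366 and 307 FPKM, and was the only kept member of the 61 that was highest in library 1 and lowest in library 3. That order held for 26.1% of all 6595 genes kept. The lowest subunit of complex I was NDUFS4, an accessory subunit of the matrix arm, at 15.9, 22.2 and 27.6 FPKM.

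The catalytic core of complex I, which holds the flavin and the iron-sulphur clusters, lay between 98.6 and 151 FPKM by mean for its 5 matched genes. NDUFV1, which binds NADH and flavin, had the smallest spread of the complex at 114, 112 and 121 FPKM. NDUFS1, an iron-sulphur subunit, had 116, 87.8 and 125 FPKM, and NDUFS8, another, had 167, 114 and 137 FPKM. These 3 core genes were lowest in library 2. NDUFS3, a core subunit without a cluster, had 113, 162 and 178 FPKM, and NDUFV2 had 78.5, 103 and 114 FPKM, so that 2 of 5 core genes were lowest in library 1. Of the accessory subunits, 7 of 7 of the matrix arm and 9 of 11 of the membrane arm were lowest in library 1. Among all genes kept that share was 25.8%. Highest in library 3 were 4 of 5 core genes, 7 of 7 matrix arm and 9 of 11 membrane arm accessory genes. All genes kept had 22.6% highest there. The median log2 difference of library 3 over library 1 was 0.10 for the core and -0.16 for all genes kept. It was 0.54 for the matrix arm accessory genes and 0.38 for the membrane arm accessory genes. This split was made after the values were seen and was not tested. The largest spread in complex I was that of NDUFA11, a membrane arm subunit, with 43.7, 97.0 and 109 FPKM. NDUFA5, of the matrix arm, had 86.4, 166 and 189 FPKM, and these were the 2 genes of complex I with libraries that spanned more than 2-fold on the log2(FPKM + 1) scale. NDUFA12, of the matrix arm, was nearly as flat as NDUFV1, with 210.3, 217 and 229 FPKM. NDUFAB1, the mitochondrial acyl carrier protein, which also serves fatty acid synthesis, had 52.9, 54.6 and 67.7 FPKM. NDUFS5 was highest in library 2 with 92.97, 134 and 107 FPKM, and NDUFA10 was lowest there with 69.9, 65.8 and 91.02 FPKM. The other 8 accessory genes had means between 91.07 FPKM for NDUFB2 and 249 FPKM for NDUFB9. All 8 were lowest in library 1 and highest in library 3, against 12.8% of all genes kept.

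Complex III, which passes electrons from ubiquinol to cytochrome c, had all 6 matched genes lowest in library 1 and highest in library 3. Among all genes kept, 12.8% had that order. UQCRHL, the table's name for the hinge protein gene UQCRH, was listed at 341, 579 and 726 FPKM. UQCR11, a small subunit, had the largest spread of the complex at 166, 374 and 549 FPKM, a 3.30-fold range. UQCRFS1, the Rieske iron-sulphur protein, had 135, 179 and 300.03 FPKM, where library 3 stands above the other libraries. The core proteins UQCRC1 and UQCRC2 had 81.7, 106 and 149 FPKM and 103, 130.4 and 158 FPKM. Their log2 ratio within a library was -0.24 ± 0.13 (SD, n = 3), below 2 SD and so not called. UQCRQ, a small subunit, had 83.8, 111 and 139 FPKM. Its mean of 111.1 FPKM was the lowest of the complex, close to the 112.2 FPKM of UQCRC1, which was the lower of the pair in libraries 1 and 2.

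Complex IV, cytochrome c oxidase, had genes from a mean of 13.6 to a mean of 810.1 FPKM. COX7C was listed at 653, 822 and 955 FPKM, highest in library 3. COX6C had 549, 586 and 603 FPKM and COX4I1 had 592, 527 and 562 FPKM, so these structural subunits differed by at most 1.12-fold between libraries. COX4I1 was highest in library 1, the only gene of the complex to be so. COX5A, of the matrix side, had 162, 218 and 264 FPKM. COX6A1, with 51.3, 94.96 and 96.9 FPKM, had the largest spread of the complex. COX8A, at 20.6, 33.7 and 24.5 FPKM, was highest in library 2. COX7A2 was lowest at 9.93, 15.1 and 15.7 FPKM. COX7A1, planned as the partner form of COX7A2, and COX6A2, planned as that of COX6A1, had no value to compare. COX7A2 and COX6A1 thus need not give the whole level of their subunits. COX7A2L, a relative of COX7A2 that links complexes III and IV in supercomplexes, had 105, 98.99 and 133 FPKM. The log2 ratio of COX7A2 to COX7A2L was -3.06 ± 0.34 (SD, n = 3), which was called, with an exact sign-flip permutation p of 0.25.

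Complex V, the ATP synthase, held the highest gene of the whole set. ATP5I, subunit e of the membrane part, had 952, 1448 and 1493 FPKM. ATP5E, the epsilon subunit of the central stalk, had 482, 609 and 599 FPKM and the smallest spread of the complex. ATP5B, the catalytic beta subunit, had 259, 403 and 546 FPKM, and ATP5C1, the gamma subunit of the central stalk, had 219, 322 and 404 FPKM. Both spread more widely than ATP5E, with library 1 lowest and library 3 highest. ATP5G1 and ATP5G3 encode the ring subunit c, whose mature protein is the same from either gene in mammals. ATP5G1 had 261, 490 and 613 FPKM, and ATP5G3 had 127, 248 and 371 FPKM, the largest spread of the complex. ATP5G1 exceeded ATP5G3 in each library, and their log2 ratio of 0.91 ± 0.17 (SD, n = 3) was called, with an exact sign-flip permutation p of 0.25. Whether their transcripts are alike enough to share reads was not examined here, so their split is uncertain. Of the peripheral stalk, ATP5O had 159.9, 234 and 304 FPKM, ATP5H 177, 228 and 246 FPKM and ATP5J 241, 358 and 429.9 FPKM. ATP5J2, subunit f, had 254, 343 and 414 FPKM. These 4 genes were all lowest in library 1 and highest in library 3, against 12.8% of all genes kept. Split by place in the enzyme, after the values were seen and without a test, the median log2 difference of library 3 over library 1 was 1.38 for the 2 ring genes, 0.88 for the 3 genes of the F1 part (ATP5B, ATP5C1 and ATP5E), 0.83 for the 3 peripheral stalk genes and 0.67 for ATP5I with ATP5J2. ATP5S, a coupling factor that is not part of the standing structure, had 4.87, 9.87 and 4.93 FPKM.

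CYCS, the mobile electron carrier, had the widest range of all 61 kept members, with 76.9, 172 and 295 FPKM in libraries 1 to 3, a 3.83-fold range. It was lowest in library 1 and highest in library 3. CYC1, which receives the electron in complex III before cytochrome c, had no row to compare.

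Of the 11 assembly factors chosen by symbol, 7 were lowest in library 1, against 25.8% of all genes kept. Highest in library 3 were 5 of the 11, against 22.6% of all genes kept. NDUFAF2, a late factor of complex I, was listed at 40.5, 49.1 and 50.5 FPKM, and NDUFAF1, an early one, at 40.5, 40.6 and 34.2 FPKM. COX20, a chaperone of the mitochondrially encoded COX2, had the largest spread with 24.3, 44.6 and 44.9 FPKM. COX10 and COX15, which make heme A, had 12.1, 15.3 and 19.5 FPKM and 8.75, 10.04 and 9.91 FPKM. The copper-related factors COX19 and COX11 had 18.8, 23.1 and 23.3 FPKM and 8.48, 7.02 and 7.07 FPKM, lowest and highest in library 1. NDUFAF5, a complex I factor, had 20.7, 14.0 and 16.1 FPKM. NDUFAF7 had 8.83, 14.4 and 9.63 FPKM, COX16 had 3.50, 4.63 and 5.67 FPKM, and NDUFAF4 was lowest of all at 3.43, 2.97 and 3.38 FPKM. None of these 11 spanned more than 2-fold on the log2(FPKM + 1) scale.

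Across libraries, 50 of the 61 kept members (82.0%) were lowest in library 1, against 25.8% of the 6595 genes kept. Highest in library 3 were 48 members (78.7%), against 22.6% of all genes kept, and 44 members (72.1%) met both, against 12.8%. Lowest in library 2 were 9 members, against 34.8% of all genes kept, and lowest in library 3 were 2, against 39.4%. Highest in library 1 were 6 members, against 51.1% of all genes kept, and highest in library 2 were 7, against 26.3%. After median-of-ratios scaling, which moved library 1 by -0.12 log2, library 2 by 0.028 and library 3 by 0.063, the counts were 53 lowest in library 1, against 37.1% of all genes, and 52 highest in library 3, against 31.8%. The order of the libraries was already known for this kind of gene, so these counts describe the libraries and carry no test.

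The counts differed by complex, and that difference was not tested. Complex III had 6 of 6 genes lowest in library 1, complex V 11 of 11, complex I 19 of 24, complex IV 6 of 8 and the assembly factors 7 of 11. Highest in library 3 were 6 of 6, 9 of 11, 21 of 24, 6 of 8 and 5 of 11 in the same order. Among all genes kept, 25.8% were lowest in library 1 and 22.6% highest in library 3. The 7 subunit genes not lowest in library 1 were NDUFA10, NDUFB10, NDUFS1, NDUFS8, NDUFV1, COX4I1 and COX7A2L, which are named because their values set them apart. On log2(FPKM + 1), library 1 was set against the average of libraries 2 and 3, minus the median of all genes kept. This relative deviation had a median of -0.85 in complex III, -0.85 in complex V, -0.60 in complex IV, -0.47 in complex I and -0.44 in assembly factors. In library 3 it was 0.78, 0.63, 0.44, 0.40 and 0.16 in the same order. Library 2 lay between 0.035 and 0.19 in every complex and at 0.14 in assembly factors. Without library 1, library 2 lay at -0.28 for all subunits, and without library 3 at 0.52, against 0.12 with all libraries. In those settings library 2 is set against a single library, whose value it mirrors by definition. They therefore do not show how stable library 2 is. The differences between complexes in these deviations were not tested.

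**Figure D3:**
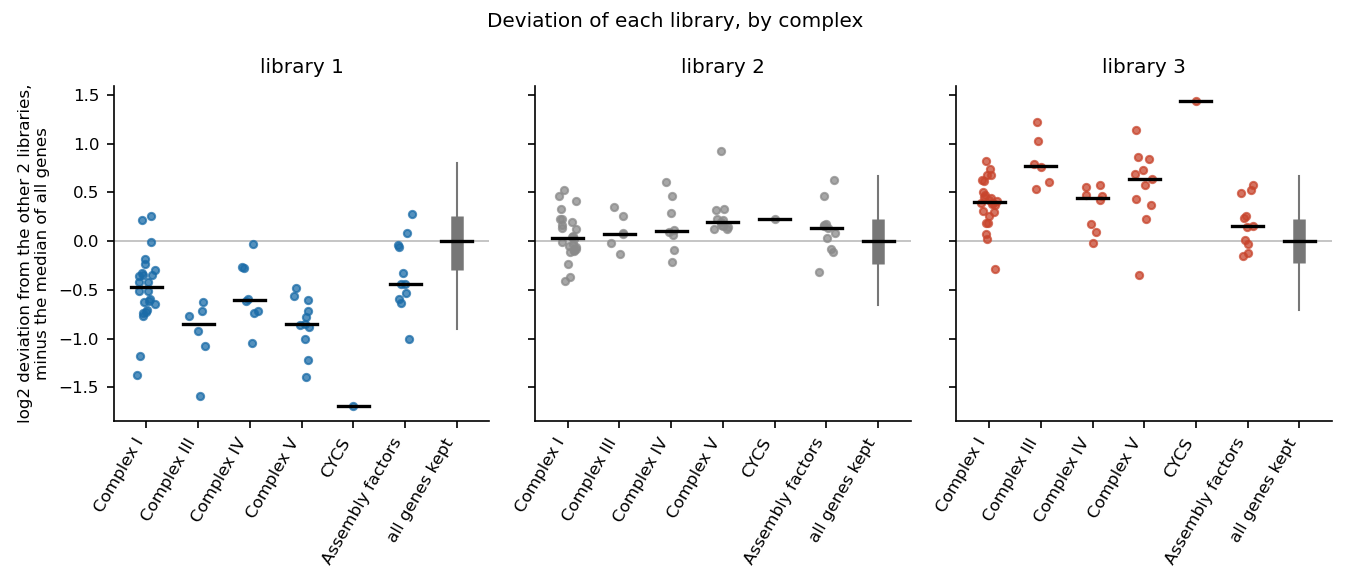
Each point is 1 gene: its log2 deviation in 1 library from the mean of the other 2, minus the median deviation of all genes kept, with medians as black bars. The grey bar and line for all 6595 genes kept span the 25th to 75th and the 5th to 95th percentiles, and medians of the complexes lie at -0.47 to -0.85 in library 1 and at 0.40 to 0.78 in library 3.

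The spread of genes of a complex was smaller relative to their complex. The median SD of log2 level over 3 libraries was 0.49 in complex III and 0.15 once the median of the complex was taken off in each library. In complex V it was 0.44 and 0.15, in complex IV 0.31 and 0.20, and in complex I 0.26 and 0.17. Assembly factors showed no such drop, with 0.17 as they stand and 0.23 relative to their own median. All genes kept had 0.26 and 0.25. The median taken off comes from the same genes, which by construction lowers the spread in small complexes, and no test was made. The largest remaining SDs were 0.58 for ATP5S, 0.52 for NDUFA11, 0.47 for UQCR11 and 0.45 for NDUFB10. UQCR11 stood 0.49, 1.29 and 1.33 log2 above the median of complex III in libraries 1 to 3, nearest to it in library 1.

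**Figure D4:**
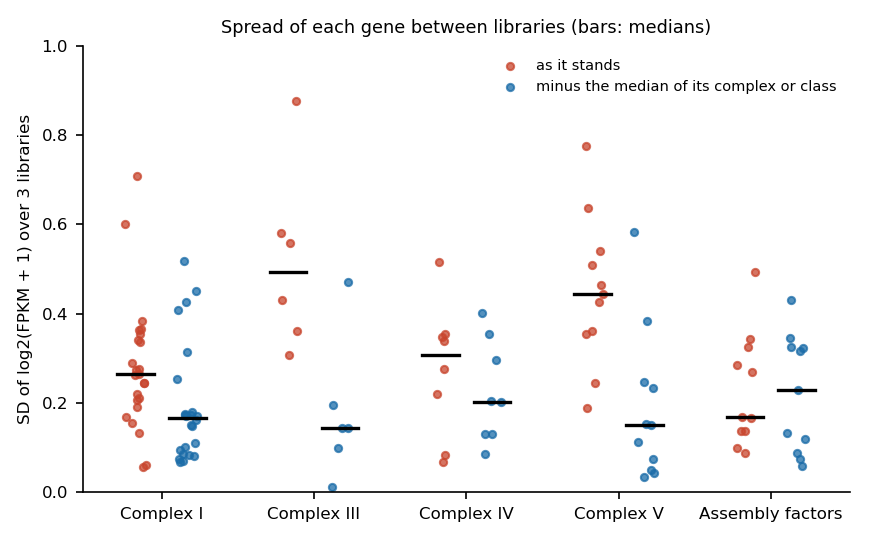
SD of log2(FPKM + 1) over 3 libraries for each kept gene, as it stands (red, left) and after the median of its complex or class is taken off in each library (blue, right), with medians as black bars. Medians drop from 0.49 to 0.15 in complex III and from 0.44 to 0.15 in complex V, and do not drop in assembly factors.

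No single member passed the test of spread between libraries. The limma variance test, which sets the variance of a gene against its trend with mean level, called 0 of 61 members and 0% of 6595 genes at a Benjamini-Hochberg adjusted p under 0.05. The smallest adjusted p among members was 0.735 for CYCS, with an unadjusted limma p of 0.020. UQCR11 (0.030) and ATP5G3 (0.043) were the others with an unadjusted p under 0.05, so 3 of 61 members reached it against 5.64% of all genes. On simulated data of these 6595 genes the test found 0 of 200 genes shifted by a log2 of 4 in 1 library and 199 of 200 shifted by 6. The count of 0 therefore says little about differences of the size seen here. On the log2(FPKM + 1) scale, 9 members (14.8%) had a range over 2-fold, against 14% of all genes kept, a share near the background. ATP5S passed 2-fold in FPKM, at 2.03-fold, but not on that scale.

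Other parts of the pathway were mixed. Complex II, which feeds electrons from succinate and is made by nuclear genes alone, had 3 of 4 genes matched. All 3 were lowest in library 1 and highest in library 3, against 12.8% of all genes kept. SDHD was listed at 132, 175 and 195 FPKM, SDHB at 119.9, 133 and 141 FPKM and SDHA at 87.0, 90.3 and 124 FPKM. A separate list held 43 other assembly factors of all complexes, without the NDUFAF and COX factors described above, and 26 were kept. Of these, 9 were lowest in library 1, 6 highest in library 3 and 12 highest in library 1, against 25.8%, 22.6% and 51.1% of all genes kept, so the list did not stand far from the background. SDHAF2, for complex II, and HIGD2A led that list at means of 104 and 87.5 FPKM, and its gene of largest spread, entered as HIGD1C through a synonym of HIGD1A, had 22.5, 42.8 and 68.7 FPKM.

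Cofactor genes are described by the same counts, beside 25.8% of all genes kept lowest in library 1 and 22.6% highest in library 3. Of 9 heme synthesis and attachment genes, 6 were matched and kept, 5 of them lowest in library 1 and 3 highest in library 3. HCCS, which attaches heme to cytochromes c and c1, had 37.9, 60.3 and 63.6 FPKM, and CPOX, an enzyme of heme synthesis, had 10.3, 14.4 and 28.4 FPKM. Of 13 coenzyme Q genes, 7 were kept, 4 of them lowest in library 1 and 4 highest in library 3. COQ9, a lipid-binding protein of that synthesis, had 249, 258 and 362 FPKM, and COQ8A had 32.6, 29.0 and 53.8 FPKM. Of 8 genes that pass electrons to the chain from other sources, only ETFDH, with 8.22, 11.05 and 14.03 FPKM, and DHODH, with 2.30, 3.14 and 1.80 FPKM, were kept.

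Of 20 regulators of mitochondrial genes, 13 were kept, with 3 lowest in library 1, 3 highest in library 3 and 7 highest in library 1. These counts lay near the 25.8%, 22.6% and 51.1% of all genes kept. TFAM, which packages mitochondrial DNA, had 20.9, 22.5 and 24.04 FPKM. NRF1, a factor that binds promoters of respiratory chain genes in mammals, had 11.98, 20.3 and 14.2 FPKM, and GABPA, another, 27.1, 20.4 and 29.9 FPKM. PPARD, a nuclear receptor, had the largest spread of the list with 8.71, 3.95 and 4.55 FPKM. The gene of the coactivator PPARGC1A was listed at 0.588, 0.803 and 1.08 FPKM. None of the 13 genes of the mitochondrial genome was matched, so the other side of each complex was not analysed here.

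Markers of other cell types also differed between the libraries. Macrophage genes (8 of 10 matched) summed to 389, 335 and 163 FPKM in libraries 1 to 3, most of it CD74 with 325, 270 and 136 FPKM. Adipocyte genes (8 of 8) summed to 284, 176 and 107 FPKM. Lowest in library 3 were all 7 kept macrophage genes and 7 of 8 adipocyte genes, against 39.4% of all genes kept. The adipocyte gene ADIPOQ went the other way, highest in library 3 with 38.4, 36.1 and 46.9 FPKM. Fibroblast genes (7 of 8) summed to 419, 898 and 672 FPKM. Of these 7, 5 were lowest in library 1, against 25.8% of all genes kept, while PDGFRA was highest there and THY1 was lowest in library 3. The other 6 than PDGFRA were highest in library 2, against 26.3% of all genes kept. Endothelial genes (7 of 8) summed to 99.2, 63.7 and 69.3 FPKM. Highest in library 1 were 4 of the 7, near the 51.1% of all genes kept, and CDH5 and KDR were highest in library 3. Lowest in library 2 were 5 of the 7, against 34.8% of all genes kept. Red blood cell genes (5 of 8) summed to 70.1, 409 and 291 FPKM, most of it CA2, a carbonic anhydrase, with 45.7, 355 and 189 FPKM. The haemoglobin gene HBBA had 24.3, 54.1 and 98.7 FPKM, highest in library 3, while HBAD and HBE were near 0 throughout and HBA1 near 0 in libraries 1 and 2. Fast muscle genes (5 of 8) summed to 48880, 62245 and 62379 FPKM. They were split, with 3 of the 5 lowest in library 1, against 25.8% of all genes kept. The other 2, TNNC2 with 14970, 14728 and 13542 FPKM and PVALB with 2.37, 1.46 and 1.28 FPKM, were highest in library 1 and lowest in library 3. Slow and oxidative markers (7 of 8, with MYL2 below 1 FPKM throughout and MYL2 and MYL3 at 0 in library 1) summed to 13600, 13550 and 13309 FPKM, nearly all of it TNNC1. Of the 5 kept slow and oxidative markers, the other 4 were highest in library 2, against 26.3% of all genes kept. The part of these cell types and fibre types in the order of the respiratory chain genes was not tested. In bulk tissue, fewer cells of a type and less RNA per cell cannot be told apart.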

How the data were processed

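Total RNA of breast muscle was taken with TRIzol and mRNA with oligo(dT) beads, per the labels' protocols. CASAVA 1.7, HTSeq and Bowtie2 are listed, per the submitters' processing notes, without their roles. Build, annotation and estimating program: not given in the sources used here. The deposited values, 36977 per library, carry no unit and were treated as FPKM made by the authors, an inference from the values. Read depth is unknown, so no interval or detection floor is given.

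Rows were paired with genes by RefSeq accession without version, through a RefSeq gene table (assembly GRCg7b) that served only for names: 13188 rows (35.7%) matched. Rows were summed per gene. A gene was kept if 2 or more libraries reached 1 FPKM, and was then put on log2(FPKM + 1). Complexes were compared within a library as log2 ratios of medians, with exact sign-flip permutation tests. Spread was fitted over all kept genes with limma 3.58.1 (R 4.3.3), robust, residual df 2, with the prior df of the bulk of genes for every gene. That prior was chosen after the files were seen, because with limma's lower prior for outlying genes the test recovered no shifted gene in simulated data. Of 14 planned isoform and partner pairs, 4 were measured. Older symbols stand for newer ones, such as ATP5G1 for ATP5MC1.

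Members and lists were chosen with earlier results of these data known. Genes named were the 4 highest, the lowest, and those of largest and smallest spread per class, both genes of each pair, and the leading genes of each list. Others were chosen after their values were seen. Some genes that this rule would name are not reported here. No sequence table was used here, so the planned motif and protein descriptions were not made. Each library in turn, the highest row per gene, curated rows, filters, pseudocounts, median-of-ratios scaling, other class assignments and geometric means were tried as alternatives.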

Additional observations from a re-analysis of the deposited data

How the results depend on the processing

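The log2 ratio of subunits to assembly factors was called under every alternative run, between 2.07 and 3.50, and between 3.31 and 3.39 with 1 library left out. The order of the complexes depended on which members entered. With curated rows only, complex I lay at -1.43 to complex III and 0.11 to complex IV, and complex III at 1.54 to complex IV and 0.029 to complex V. There I to III and III to IV were called, and I to IV and III to V were not. That setting leaves 37 members, of which 31 were lowest in library 1, and a share of 1.34%. With COX7A2L moved from complex IV to the assembly factors, complex III lay at -0.38 to complex IV, which was called. That setting was also meant to move NDUFA4 and NDUFA4L2, but neither had a row. The geometric mean over all members put complexes I, III and IV above complex V by 5.03, 5.62 and 5.18, because ATP5F1AW enters it near 0. Without that gene, a setting added after the data were seen, the ratios were -0.99, -0.40 and -0.84.

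With 1 library left out, complex I to complex III ranged from -0.61 to -0.35, complex III to complex IV from -0.10 to 0.086, NDUFV1 to NDUFV2 from 0.11 to 0.33, and UQCRC1 to UQCRC2 from -0.32 to -0.19. The relative deviation of library 2 ranged from -0.28 to 0.52 for subunits and from -0.030 to 0.40 for assembly factors. These values mirror those of the only other library left, by definition, and do not show how stable library 2 is. The ratio of complex I to III was called without library 1 and without library 3. NDUFV1 to NDUFV2 was called without library 1, and UQCRC1 to UQCRC2 without library 3. With 1 library left out, each SD rests on 2 values, so such a call is weaker than a call on 3 libraries. The limma test called 31 genes without library 2, 6 without library 3 and 0 without library 1, and no member in any of these. No count for library 1 exists without library 1, or for library 3 without library 3. No paired analysis was possible because there is 1 group. The unknown depth limits every value of a low gene.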

Other observations

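Summing rows per gene hid differences between transcripts of the same gene in a few members. NDUFAF1 had 2 predicted rows, of which the first was listed at 26.9, 21.3 and 14.6 FPKM and the second at 13.6, 19.3 and 19.7 FPKM in libraries 1 to 3. They ran in opposite order, and the sum was nearly flat. For ATP5J, the coupling factor subunit of the stalk, 1 row had 140.3, 251 and 312 FPKM and the other 101, 108 and 118 FPKM. The second row of ATP5C1 had 9.69, 47.6 and 47.5 FPKM beside 209.8, 274 and 356 FPKM for the first. NDUFB1, with 3 curated rows, had 294, 427 and 403 FPKM in its leading row while the other 2 rows were smaller and lowest in library 2. In all, 12 of the 62 genes had more than 1 row. How reads were divided between such rows is not given in the sources used here.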
